A study of Mus musculus with 20 samples.

Results

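The genes of lipoprotein assembly and remodelling were followed in liver RNA sequencing of Lepr db/db mice, which lack the long form of the leptin receptor and become obese and diabetic. The set held 10 genes, namely Apob, Mttp, Apoe, Apoc3, Apoa1, Apoa4, Apoa5, Pltp, Lipc and Lcat, chosen by their symbols from the 22298 genes listed for each library. All 10 passed the filter on low counts, as did 12342 genes in all. The 20 livers came from male mice in 4 groups of 5, and benzbromarone (BBR), a urate-lowering drug used in gout that blocks the renal urate transporter URAT1, was compared with its vehicle on 2 vector backgrounds.

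Every mouse received an adeno-associated virus of serotype 8 through the tail vein at 5 weeks of age. Vec mice received a vector with a non-targeting shRNA and then the vehicle, a solution of sodium carboxymethyl cellulose. Vec+BBR mice received the non-targeting vector and BBR by gavage at 25 mg/kg once daily for 4 weeks. The shRNA mice received a vector with 4 hairpins in 1 construct against Pparg, the gene of the nuclear receptor PPARγ, and then the vehicle. The shRNA+BBR mice received the Pparg vector and BBR. Food was withheld for 6 h before the livers were taken. The vector was delivered to the whole animal, and the promoter that drove the hairpins was not given in the sources used here, so that knockdown cannot be assigned to hepatocytes alone.

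Lipoproteins carry triglyceride and cholesterol through the blood. In the liver, the microsomal triglyceride transfer protein encoded by Mttp loads lipid onto apolipoprotein B as the particle is built, and the smaller apolipoproteins join the particle or exchange between particles later. Lipases, transfer proteins and a cholesterol-esterifying enzyme then reshape the particles in plasma and at the liver surface, which is why the genes are described here as builders, surface apolipoproteins and remodelling proteins.

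The total counts per library ran from 17432904 to 25024099, and the 10 genes together took between 2.18% and 3.46% of them. Values are CPM, counts scaled to a common library size by TMM factors that correct for differences in composition, unless FPKM is named. The deposited FPKM divides by transcript length and by the plain library total, without TMM factors, so that the 2 units differ in both respects. Changes are log2 fold changes from edgeR with the standard error (SE), and a gene was called changed when its p-value, adjusted over all 12342 genes, was under 0.05. Pparg, the targeted gene, had a mean of 24.8 ± 8.63 CPM in Vec, 31.8 ± 4.57 in Vec+BBR, 5.73 ± 1.53 in shRNA and 13.9 ± 6.22 in shRNA+BBR (SD, n = 5 each). It was lower in shRNA than in Vec by edgeR (log2 fold change -2.12, adjusted p = 4.47e-05) and higher in shRNA+BBR than in shRNA (1.28, adjusted p = 0.00773).

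1 Vec library, replicate 3, stood apart from the other 4 Vec libraries in several of the 10 genes. Its Pltp level was 4.25 times the mean of the others, its Apoa4 level 3.78 times and its Apoa1 level 2.76 times. It had the lowest Vec values of Lipc and Lcat, at 0.758 and 0.751 times the mean of the others. In 7 of the 10 genes it deviated from the other Vec libraries to the side on which the mean of the Vec+BBR livers lay. The comparisons with Vec that it moved most are therefore given with and without it. The share of all genes that deviated in this way was not examined. The library was singled out from these same values, so that leaving it out enlarges the BBR change of the 7 genes by construction. Adjusted p-values without it are given as a description and are not a separate test. The library also had the highest Pparg level of its group, 35.9 CPM, and the highest sum over 4 markers of lipid-associated macrophages, 69.6 CPM against a group range of 32.0 to 69.6. Other marker sums were extreme in it as well. It was the highest of its group for cholangiocyte markers (45.3 CPM), which share Spp1 with that list, and for enterocyte markers (92.5 CPM). For sinusoidal endothelial markers it was the lowest (72.9 CPM), and for the remaining lists it lay inside the group range.

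**Figure D1:**
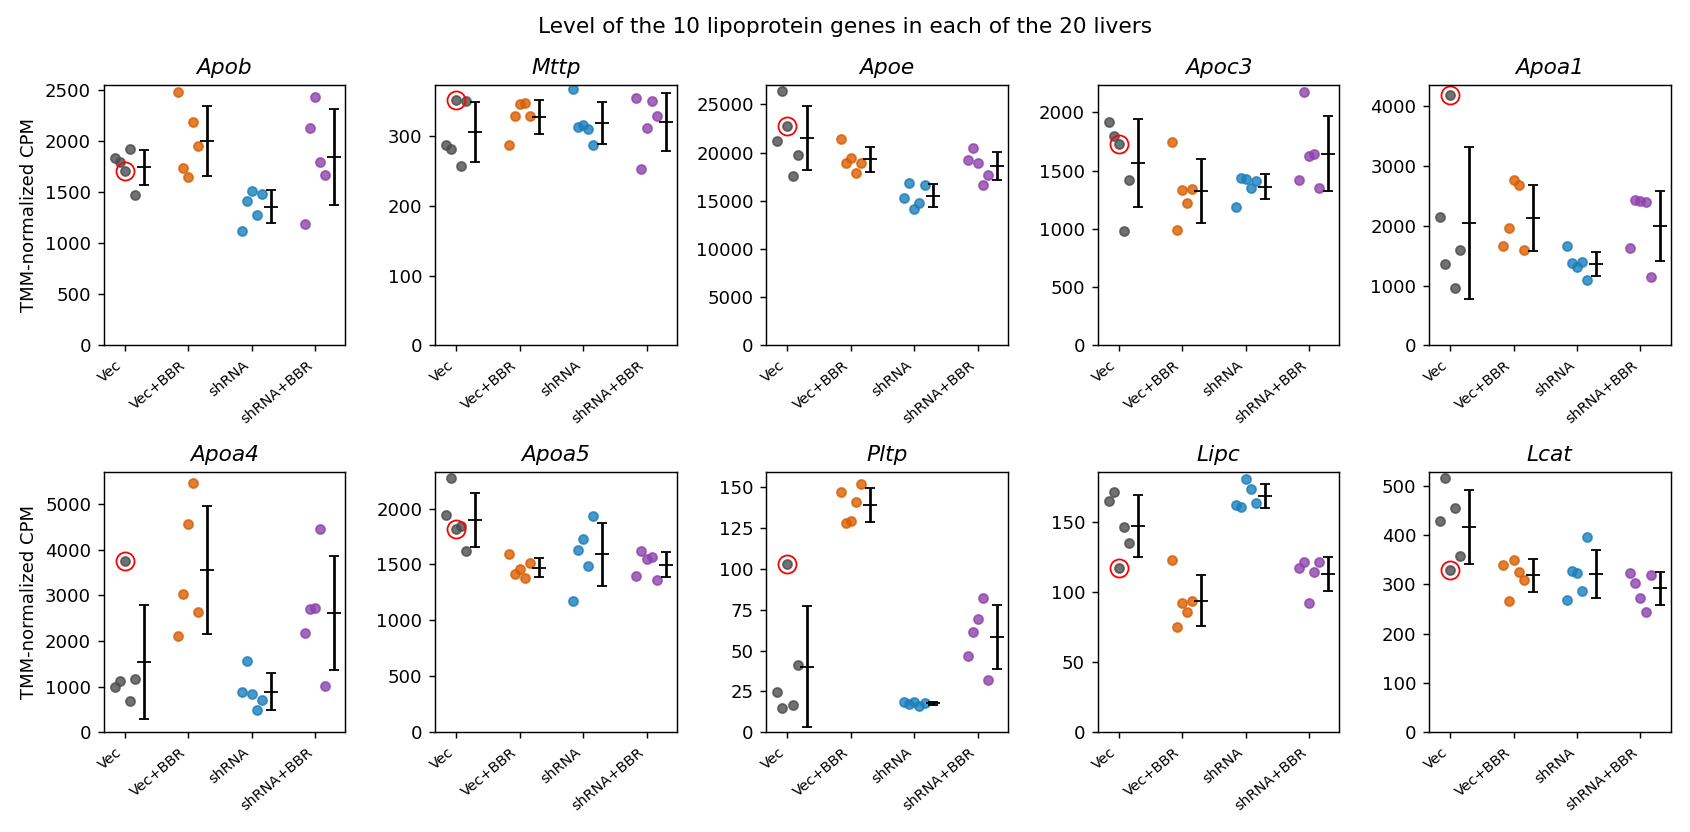
TMM-normalized CPM (vertical axes, from 0) of the 10 genes in each of the 20 livers, with points for single libraries in the order of their replicate numbers and bars for the mean ± SD of the 5 libraries of a group. The red ring marks Vec replicate 3, which is the highest Vec library for Pltp at 103 CPM and the lowest for Lipc at 117 CPM.

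Per transcript length, the levels of the 10 genes spanned a wide range. In Vec livers, Apoe had the highest mean, 15731 ± 1754 FPKM, and was followed by Apoc3 at 2776 ± 588, Apoa1 at 1866 ± 1149.7 and Apoa5 at 1179 ± 119 (SD, n = 5 each). Apoa4 stood at 799 ± 644, Apob at 407 ± 95.5 and Lcat at 292 ± 46.8 FPKM. Lipc at 93.1 ± 12.6, Mttp at 73.1 ± 11.2 and Pltp at 21.2 ± 19.3 FPKM were the lowest. Only 3 neighbours in this order had ranges over the 5 livers that did not overlap, namely Apoe and Apoc3, Lcat and Lipc, and Mttp and Pltp. The other neighbours did not differ beyond their spread. In the shRNA group the order was the same, and there Apoc3 and Apoa1, and Lipc and Mttp, did not overlap either. In Vec+BBR livers Apoa4 stood above Apoa5 and Pltp above Lipc in the order of means. Lipc was the lowest of the 10 there, at 63.9 ± 10.2 FPKM, and its range overlapped that of Pltp, 72.8 to 86.6 FPKM.

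The FPKM of Apob depends on the transcript length that was used. Lengths were obtained by dividing CPM taken without TMM factors, on the plain library total, by FPKM. For Apob they lay between 3176 and 6708 bases over the 20 libraries, against 13934 bases for its longest annotated transcript. Per kilobase of that longest transcript, Apob reached 125 ± 12.2 CPM in Vec, below Lcat at 311 ± 55.7. Apob thus stood above Lcat on one scale and below it on the other. For Apoa5 the lengths ran from 1268 to 1778 bases, against 2515 for its longest transcript, while for Apoa4 and Lcat, each with 1 annotated transcript, they equalled it in every library. The abundance of Apoe was such that it alone took 1.42% to 2.3% of all counts and ranked between 3 and 5 among all genes of a library.

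**Figure D2:**
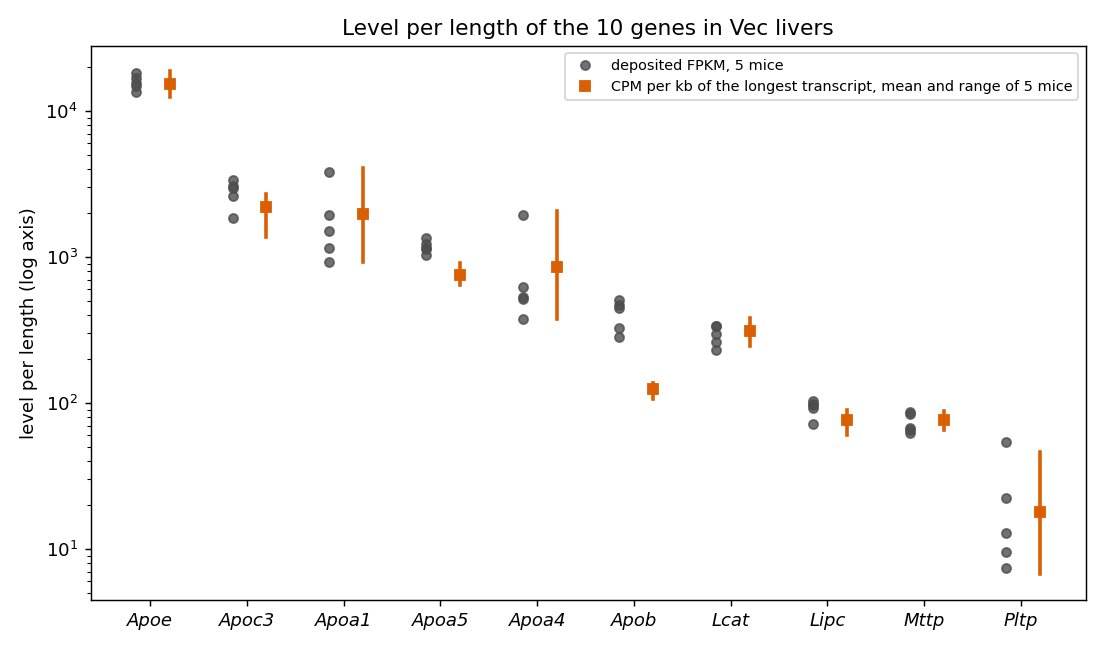
Level per length of the 10 genes in the 5 Vec livers on a log axis, as deposited FPKM (grey points, 1 per liver) and as CPM per kilobase of the longest annotated transcript (orange squares, mean, with lines from the lowest to the highest liver). Apob is a gene whose position depends on the scale, at 407 FPKM and 125 CPM per kilobase, of which the latter includes TMM factors.

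With BBR on the Vec background, 1 of the 10 genes rose and 3 fell. Pltp rose, and Lipc, Apoa5 and Lcat fell, while Apob, Mttp, Apoe, Apoc3, Apoa1 and Apoa4 did not pass the test. Over all genes tested, 7.58% rose and 7.88% fell in this comparison, and 8.94% had groups that did not overlap, as Pltp and Apoa5 did. The median log2 fold change was -0.05 over the 10 genes and -0.01 over all genes. With libraries scaled by total counts, 2 of the 10, Pltp and Apoa4, rose and 1, Lipc, fell, with a median of 0.09. The balance of all genes turned as well, with 1831 called higher and 459 lower, against 936 and 972 with TMM factors. That scaling moved the median of all genes by 0.13. With BBR on the shRNA background, Pltp and Apoa4 rose and Lipc fell, against 8.37% of all genes that rose and 7.28% that fell, and the groups of Pltp and Lipc did not overlap, as was the case for 11.4% of all genes. The median was 0.26 over the 10 genes and 0.01 over all genes.

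With knockdown and vehicle, Apoe, Pltp and Lcat fell and the other 7 genes did not pass the test, against 5.28% of all genes that rose and 7.91% that fell. Apoe was the gene without overlap between shRNA and Vec, where 8.96% of all genes had none. The median was -0.37 over the 10 genes and -0.01 over all genes. Over the 10 genes it was -0.22 without Vec replicate 3 and -0.26 with libraries scaled by total counts, where 1 of the 10 fell. Total-count scaling moved the median of all genes by 0.1, with 1098 called higher and 559 lower, against 652 and 976 with TMM factors. Between shRNA+BBR and Vec+BBR, Pltp was lower and the other 9 genes did not pass the test, against 3.31% of all genes higher and 4.82% lower, and Pltp was also the gene without overlap, against 8.48% of all genes. No gene of the 10 was called for the difference of the BBR effect between the 2 backgrounds in edgeR, where 0.0729% of all genes were called higher and 0.0729% lower. At an unadjusted p under 0.05 there were 2 such genes, Apoe and Apoc3, and DESeq2 called 0. Each of the 4 groups enters 2 of the 4 comparisons, so that comparisons with a common group are not independent of each other.

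**Figure D3:**
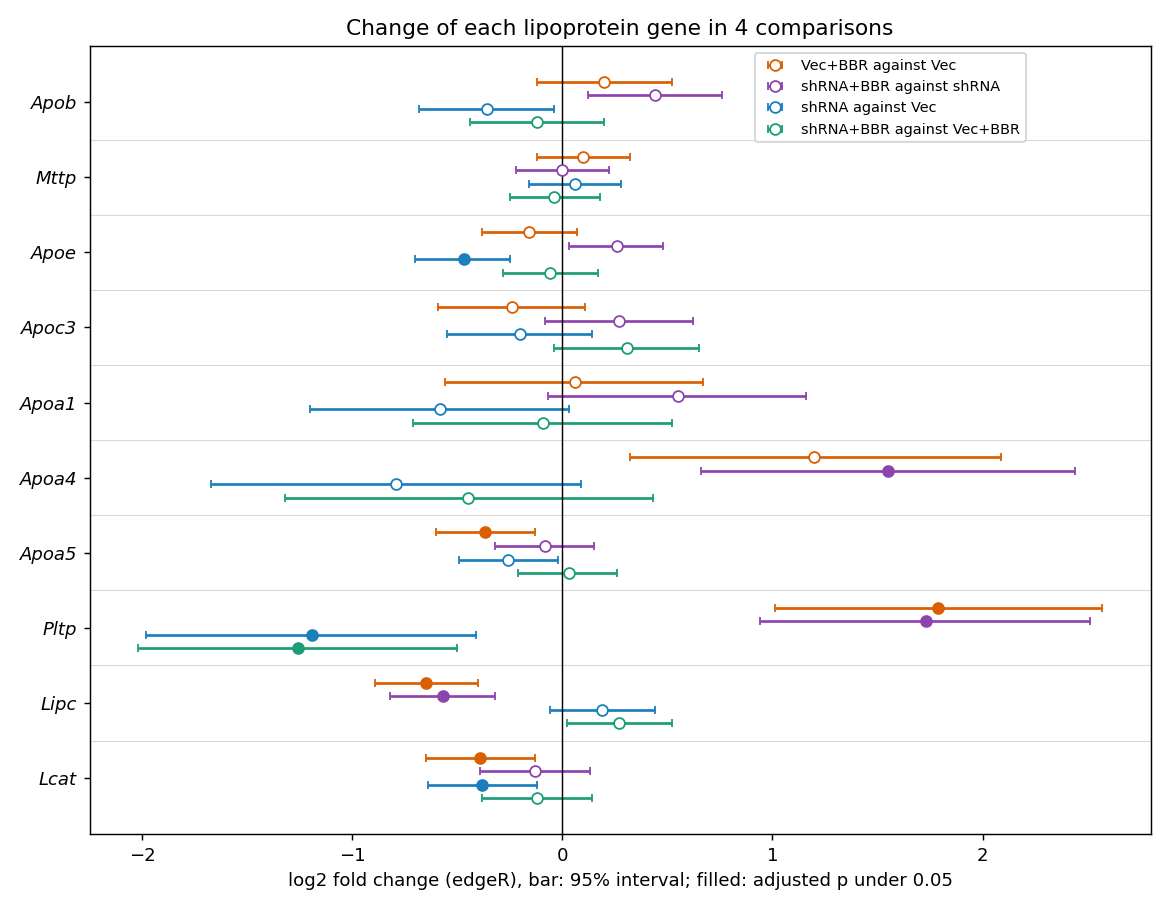
Log2 fold change (horizontal axis) of the 10 genes in 4 comparisons, with 95% intervals from edgeR. Filled symbols have an adjusted p under 0.05, and Pltp is the gene with filled symbols in all 4 comparisons, from -1.26 to 1.79.

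The results turn first on Pltp, whose product, phospholipid transfer protein, moves phospholipid from triglyceride-rich particles to high-density lipoprotein and remodels the latter. The gene (ENSMUSG00000017754) lies on the minus strand at chr2:164839518-164857711 (GRCm38). The 250 bases before its RefSeq start (GRCm38.p6, chr2:164857709-164857958, minus strand) are shown because the gene was called in every comparison of 2 groups and PPARγ was the target of the vector. No base is in capitals, because no copy of the nuclear receptor half-site AGGTCA was found on either strand, nor a pair of half-sites 1 base (DR1) or 4 bases (DR4) apart with at most 2 mismatches.
Pltp: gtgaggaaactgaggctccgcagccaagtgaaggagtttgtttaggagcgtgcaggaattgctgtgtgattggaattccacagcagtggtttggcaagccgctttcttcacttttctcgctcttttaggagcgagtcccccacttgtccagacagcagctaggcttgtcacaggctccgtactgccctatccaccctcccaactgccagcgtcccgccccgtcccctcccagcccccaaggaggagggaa

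Pltp stood at 24.6, 14.9, 103, 16.6 and 41.3 CPM in the Vec livers (mean 40.1 ± 36.9, SD, n = 5). It stood at 147, 128, 129, 141 and 152 CPM in the Vec+BBR livers (mean 139 ± 10.5, SD, n = 5). The groups did not overlap, and the Vec+BBR livers lay close together whereas the Vec livers did not. The rise with BBR was 1.79 ± 0.37 (log2 fold change ± SE) in edgeR with an adjusted p = 0.0031. Without Vec replicate 3 it was 2.50 with an adjusted p = 5.79e-06 in edgeR.

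On the shRNA background, Pltp was at 18.6, 17.1, 18.5, 16.1 and 17.7 CPM in the livers given vehicle (mean 17.6 ± 1.05, SD, n = 5). With BBR it was at 46.5, 61.5, 69.3, 81.9 and 31.7 CPM (mean 58.2 ± 19.6, SD, n = 5). Every BBR liver again lay above every vehicle liver, and the spread was here on the BBR side. The rise was 1.73 ± 0.38 in edgeR with an adjusted p = 0.0079. The difference between the 2 rises was -0.07 on the log2 scale, with a 95% interval from -1.15 to 1.02, and without Vec replicate 3 it was -0.77 (edgeR, adjusted p = 0.243).

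With vehicle, the knockdown change of Pltp was -1.19 ± 0.38 in edgeR (adjusted p = 0.0397), and its size rested on a single library. Without Vec replicate 3 the change was -0.47 with an adjusted p = 0.245 in edgeR, and the remaining Vec livers, from 14.9 to 41.3 CPM, spanned the shRNA range of 16.1 to 18.6 CPM. Leaving out Vec replicate 5 or any 1 of the 5 shRNA libraries ended the call as well, with changes between -1.21 and -1.16 and adjusted p-values up to 0.0867. Under BBR, knockdown livers had less Pltp (-1.26 ± 0.37, edgeR, adjusted p = 0.0373), without overlap between the groups. When single libraries of the 2 groups were left out, the call held only without shRNA+BBR replicate 4, and in the 9 other cases the change was between -1.32 and -1.11 with adjusted p-values up to 0.0849.

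Markers of other cells moved with Pltp. The 4 markers of lipid-associated macrophages, Trem2, Gpnmb, Spp1 and Cd9, all rose with BBR on both backgrounds, with medians of 1.00 and 1.18 on the log2 scale. Their summed level ran from 32.0 to 69.6 CPM in Vec, 79.8 to 148 in Vec+BBR, 29.3 to 40.3 in shRNA and 44.0 to 122 in shRNA+BBR, and none of the 4 was at 0 in every library. Gpnmb also fell with knockdown. Of 11 general markers of Kupffer cells and macrophages, 1 rose and 2 fell with BBR on the Vec background, and 3 rose on the shRNA background. Their summed level was between 199 and 485 CPM over the 20 livers, and their medians with BBR were -0.04 on the Vec and 0.22 on the shRNA background. Over all genes, 7.58% rose and 7.88% fell with BBR on the Vec background, and 8.37% and 7.28% on the shRNA background. With knockdown and vehicle 5.28% rose and 7.91% fell. Other lists moved as well. Of 6 markers of sinusoidal endothelial cells, 3 rose with BBR on the Vec background and 3 with knockdown, and on the shRNA background 1 rose and 2 fell with BBR. Of 6 stellate cell markers, 2 rose with BBR on each background. Of 5 cholangiocyte markers, 1 rose with BBR on each background, namely Spp1, which is also on the list of lipid-associated macrophages and was counted there. The cholangiocyte sums, which include Spp1, ran from 24.0 to 45.3 CPM in Vec and from 50.3 to 96.6 CPM in Vec+BBR without overlap. The part of any of these cells in the change of Pltp was not tested. In whole liver, fewer cells of a type and less RNA per cell cannot be told apart.

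Lipc encodes hepatic lipase, which cleaves triglyceride and phospholipid of remnants and high-density lipoprotein at the surface of the sinusoids. The gene (ENSMUSG00000032207) lies on the minus strand at chr9:70798128-70952226. RefSeq has 2 starts for it. The 250 bases before the inner start (GRCm38.p6, chr9:70934809-70935058, minus strand), which lie within the annotated gene, are shown because they were the only ones of 13 windows, from 9 of the 10 genes, that held a match, and because Lipc fell with BBR on both backgrounds. Capitals mark an AGGTCA half-site 88 to 83 bases before the start, its reverse complement TGACCT 76 to 71 bases before the start, and 22 to 10 bases before it a DR1 match on the minus strand of the window with 2 mismatches in 12 letters. Of 32817 promoter windows of all genes, 14.0% held a half-site, 3.23% a DR1 and 2.57% a DR4 by the same rules, and a match is a description of letters and not a binding site.
Lipc, inner start: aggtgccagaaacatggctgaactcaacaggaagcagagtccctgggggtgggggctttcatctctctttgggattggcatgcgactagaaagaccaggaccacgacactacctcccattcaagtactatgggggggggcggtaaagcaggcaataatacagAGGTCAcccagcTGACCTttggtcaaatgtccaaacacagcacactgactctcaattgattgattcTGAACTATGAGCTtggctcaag

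Lipc was at 165, 171, 117, 146 and 135 CPM in Vec (mean 147 ± 22.1, SD, n = 5). With BBR it was at 123, 75.1, 91.9, 85.6 and 93.3 CPM (mean 93.8 ± 17.9, SD, n = 5). The groups overlapped only in that Vec replicate 3 lay below Vec+BBR replicate 1. The fall was -0.65 ± 0.12 in edgeR (adjusted p = 0.00133), and without Vec replicate 3 it was -0.73 (adjusted p = 0.000227).

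In the shRNA livers Lipc was at 162, 160.2, 180.3, 173 and 163 CPM (mean 168 ± 8.54, SD, n = 5). The shRNA+BBR livers were at 117, 121, 92.1, 114 and 121 CPM (mean 113 ± 12.1, SD, n = 5). There was no overlap, and the fall was -0.57 ± 0.12 in edgeR (adjusted p = 0.00625). The gene did not pass the test between shRNA and Vec (0.19 ± 0.12, adjusted p = 0.3) or between shRNA+BBR and Vec+BBR (0.27 ± 0.12, adjusted p = 0.165) in edgeR. On the deposited FPKM, however, the shRNA livers, from 116 to 132 FPKM, all lay above the Vec livers, from 71.8 to 104 FPKM, and limma gave a change of 0.42 (adjusted p = 0.0214). The lengths behind the FPKM of Lipc ran from 1329 to 1679 bases over the 20 libraries, and the part of length and scaling in this gap was not tested. The falls on the 2 backgrounds differed by 0.08, with a 95% interval from -0.27 to 0.43.

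Lcat encodes lecithin-cholesterol acyltransferase, which esterifies cholesterol on high-density lipoprotein and matures it. The gene (ENSMUSG00000035237) lies at chr8:105939551-105943382 on the minus strand. It was at 428, 515, 329, 454 and 357 CPM in Vec and at 340.2, 266, 349, 325 and 309.8 CPM in Vec+BBR. The groups overlapped, and all Vec livers but replicate 3 lay above every Vec+BBR liver. The fall with BBR was -0.39 ± 0.13 in edgeR (adjusted p = 0.0392), and it missed the threshold in 12 of 28 alternative settings, where adjusted p-values reached 0.165. Without Vec replicate 3 it was -0.47 (adjusted p = 0.0104). Among the settings that ended the call were the fits without Vec replicates 1, 2 or 4 or Vec+BBR replicates 2, 4 or 5, with changes between -0.40 and -0.31.

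Lcat was at 268, 328, 324, 287 and 396 CPM in shRNA and at 323, 302, 273, 244 and 319 CPM in shRNA+BBR. The groups other than Vec thus had means between 292 and 321 CPM, against 417 ± 74.8 in Vec. Between shRNA and Vec the change was -0.38 ± 0.13 in edgeR, with an adjusted p that rounds to 0.05 and lay under the threshold, and the call held in 5 of 28 alternative settings. Without Vec replicate 3 it was -0.45 (adjusted p = 0.0226). The call was lost without Vec replicates 1, 2 or 4, without any of shRNA replicates 1 to 4, and without each library of the other 2 groups except shRNA+BBR replicate 4, with adjusted p-values from 0.0508 to 0.157. BBR on the shRNA background gave -0.13 ± 0.12 (edgeR, adjusted p = 0.472).

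Markers of hepatocytes moved in the same direction as Lipc and Lcat with BBR on the Vec background. Of 6 hepatocyte markers tested, 4 fell, where 7.88% of all genes fell, and the median of the markers was -0.57. Their summed level ran from 121262 to 153576 CPM in Vec and from 86672 to 122416 CPM in Vec+BBR, with none at 0. On the shRNA background 2 of the 6 fell with BBR, where 7.28% of all genes fell. The median of the 6 was -0.18, and the sums ran from 114094 to 129842 CPM in shRNA and from 103915 to 120107 CPM in shRNA+BBR. Knockdown with vehicle lowered 1 of the 6 markers, against 7.91% of all genes, and the median of the markers was -0.23. Albumin itself did not pass the test with BBR on the Vec background (-0.27 ± 0.11, edgeR, adjusted p = 0.114). The part of these shifts in the falls of Lipc, Lcat and Apoa5 was not tested.

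Apoa1, Apoc3, Apoa4 and Apoa5 are neighbours within 43.3 kb on chromosome 9 (chr9:46228580-46271919), in that order, with Apoc3 on the opposite strand. Their products sit on the particle surface. Apoa1 is the scaffold of high-density lipoprotein and the activator of Lcat, Apoa4 takes part in the secretion and exchange of large particles, Apoc3 slows and Apoa5 promotes the hydrolysis of triglyceride by lipoprotein lipase. The 4 neighbours did not pass the test together in any comparison, and those that did moved in opposite directions with BBR, Apoa4 upward on the shRNA background and Apoa5 downward on the Vec background.

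**Figure D4:**
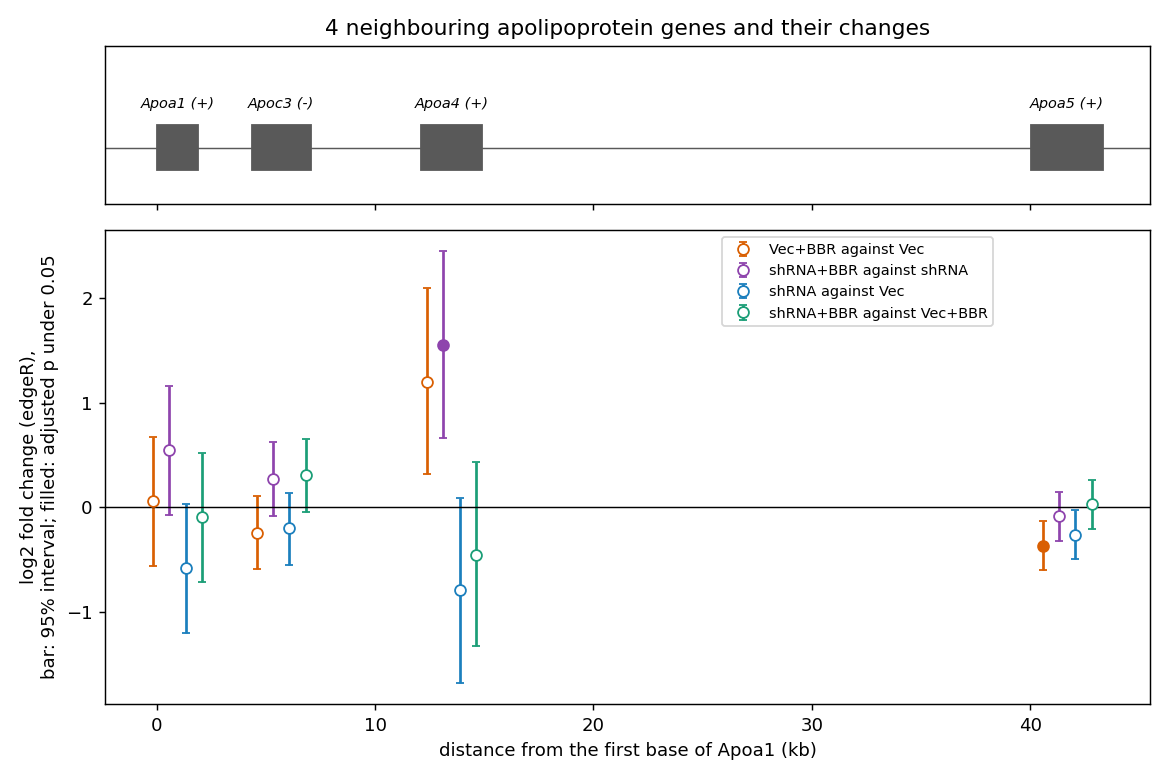
The 4 neighbouring apolipoprotein genes drawn to scale by their distance in kb from the first base of Apoa1, with strands in brackets, above the log2 fold change and 95% interval of each gene in 4 comparisons. Filled symbols, with an adjusted p under 0.05, are those of Apoa4 at 1.55 (shRNA+BBR against shRNA) and Apoa5 at -0.37 (Vec+BBR against Vec).

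The 250 bases before the start of Apoa4 (ENSMUSG00000032080, plus strand, GRCm38.p6, chr9:46240594-46240843) are shown because Apoa4 was, beside Pltp, the gene with the largest rise. They hold no match to the half-site, DR1 or DR4, and so no capitals. Apoc3 was not matched to a window.
Apoa4: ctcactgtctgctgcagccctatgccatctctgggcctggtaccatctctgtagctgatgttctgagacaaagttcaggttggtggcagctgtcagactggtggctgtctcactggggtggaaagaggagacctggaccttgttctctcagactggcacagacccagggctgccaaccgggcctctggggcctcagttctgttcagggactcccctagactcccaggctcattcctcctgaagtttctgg

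Apoa4 was at 998, 1111, 3749, 689 and 1164 CPM in Vec (mean 1542 ± 1247, SD, n = 5). With BBR it was at 2104, 3019.7, 4555, 5446 and 2641 CPM (mean 3553 ± 1397, SD, n = 5). The other 4 Vec livers lay below every Vec+BBR liver, and Vec replicate 3 lay inside the Vec+BBR range. The change was 1.20 ± 0.43 in edgeR and missed the threshold (adjusted p = 0.059), whereas without Vec replicate 3 it was 1.83 with an adjusted p = 0.00175. That was the lowest adjusted p of 28 alternative settings, of which 7 called the gene, and the highest was 0.154. Leaving out 1 library of the 2 groups gave a call in 2 of 10 cases.

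In shRNA livers Apoa4 was at 871, 1564, 838, 485 and 698 CPM (mean 891 ± 406, SD, n = 5). The shRNA+BBR livers were at 2172, 2694, 2729, 4444 and 1012 CPM (mean 2610 ± 1238, SD, n = 5). The groups overlapped through 1 liver on each side, shRNA replicate 2 and shRNA+BBR replicate 5. The rise was 1.55 ± 0.43 in edgeR (adjusted p = 0.0221). Leaving out 1 library of the 2 groups ended the call in 4 of 10 cases, shRNA replicates 4 and 5 and shRNA+BBR replicates 3 and 4, with changes between 1.27 and 1.53 and adjusted p-values up to 0.0624. Knockdown with vehicle gave -0.79 ± 0.42 (edgeR, adjusted p = 0.223), and without Vec replicate 3 -0.15 (adjusted p = 0.836). The 2 BBR effects on Apoa4 differed by 0.35, and by -0.28 without that library (edgeR, adjusted p = 0.78 and 0.786), so that its sign depended on it.

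The gut is the other main site of Apoa4, and enterocyte markers were therefore examined beside it. Sis, Alpi, Cdx1 and Cdx2 were at 0 in every library, and Vil1 and Lct did not exceed 4 counts. Fabp2, which liver also expresses, ran from 43.6 to 101 CPM and rose with BBR on the shRNA background (0.62 ± 0.20, edgeR, adjusted p = 0.0441).

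Apoa5 was at 1940.5, 2275, 1814, 1841 and 1622 CPM in Vec and at 1589.8, 1413, 1463, 1375 and 1515 CPM in Vec+BBR. Every Vec liver lay above every Vec+BBR liver, by a narrow margin. The fall was -0.37 ± 0.11 in edgeR (adjusted p = 0.0327), and without Vec replicate 3 it was -0.39 (adjusted p = 0.0273). It missed the threshold in 11 of 28 alternative settings, among them scaling by total counts, where it was -0.23 (adjusted p = 0.121), and deposited FPKM in limma, where it was -0.18 (adjusted p = 0.322). It also missed without Vec replicates 1 or 2 or Vec+BBR replicates 2, 3, 4 or 5, with changes between -0.38 and -0.30 and adjusted p-values up to 0.0978.

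On the shRNA background Apoa5 was at 1176, 1633, 1728, 1483 and 1931 CPM with vehicle and at 1399, 1623, 1549, 1571 and 1357 CPM with BBR. The BBR livers lay within the range of the vehicle livers, and the change was -0.08 ± 0.11 (edgeR, adjusted p = 0.633). The 2 BBR effects on Apoa5 differed by 0.28, with a 95% interval from -0.05 to 0.62 and an adjusted p = 0.343 in edgeR.

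Apoa1 was at 2151, 1358, 4186, 961 and 1589 CPM in Vec and between 1599 and 2762 CPM in Vec+BBR. Vec replicate 3 held the highest value of all 20 livers. The change with BBR was 0.06 ± 0.30 in edgeR (adjusted p = 0.921) and, without that library, 0.49 (adjusted p = 0.162). In shRNA livers Apoa1 lay between 1098 and 1657 CPM and in shRNA+BBR livers between 1139 and 2425 CPM, a change of 0.55 ± 0.30 (edgeR, adjusted p = 0.199). Knockdown with vehicle gave -0.58 ± 0.30 (edgeR, adjusted p = 0.2), and without Vec replicate 3 -0.15 (adjusted p = 0.751). The 2 BBR effects on Apoa1 differed by 0.49, and by 0.07 without that library (edgeR, adjusted p = 0.535 and 0.931).

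Apoc3 (ENSMUSG00000032081) was between 979 and 1916 CPM in Vec, 990 and 1744 in Vec+BBR, 1186 and 1436 in shRNA, and 1352 and 2175 in shRNA+BBR. All 4 ranges overlapped and no comparison passed the test. The change with BBR was -0.24 ± 0.17 on the Vec background and 0.27 ± 0.17 on the shRNA background. These differed by 0.51, with a 95% interval from 0.02 to 1.00, and an adjusted p = 0.252 in edgeR.

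Apoe encodes the apolipoprotein through which remnant particles are taken up by the liver. The gene (ENSMUSG00000002985) lies at chr7:19696109-19699188 on the minus strand. It was at 21224, 26402, 22781, 17601 and 19704 CPM in Vec and at 15311, 16884, 14148, 14754 and 16590.3 CPM in shRNA. Every Vec liver lay above every shRNA liver. The fall with knockdown was -0.47 ± 0.11 in edgeR (adjusted p = 0.00609), or 1.39-fold, and without Vec replicate 3 it was -0.45 (adjusted p = 0.0158).

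With BBR, Apoe was at 21363, 18923, 19475, 17889 and 18902 CPM on the Vec background and at 19203, 20425, 18940.3, 16647 and 17703 CPM on the shRNA background. The 2 BBR groups overlapped, and their difference was -0.06 ± 0.11 (edgeR, adjusted p = 0.795). BBR changed Apoe by -0.16 ± 0.11 on the Vec background (adjusted p = 0.344) and by 0.26 ± 0.11 on the shRNA background (adjusted p = 0.0992), and neither passed the test in edgeR. The 2 effects differed by 0.42, with a 95% interval from 0.10 to 0.73 and an adjusted p = 0.165 in edgeR. Macrophages also express Apoe, and of the lipid-associated macrophage markers 1 of 4 fell with knockdown, where 7.91% of all genes fell. These 4 markers had a median of -0.66 and a summed level of at most 69.6 CPM in both groups. With libraries scaled by total counts 0 of the 4 were called, with a median of -0.55, and the median of all genes moved by 0.1. Of the 11 general markers of Kupffer cells and macrophages 1 fell with knockdown, with a median of -0.44 and sums from 199 to 485 CPM in Vec and 249.7 to 341 in shRNA. The part of these cells in the fall of Apoe was not tested.

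The builders of the particle, Apob and Mttp, did not pass the test in any comparison. Apob (ENSMUSG00000020609, plus strand, chr12:7977648-8016835), the structural protein of very-low-density lipoprotein, was at 1829.6, 1792, 1711, 1918 and 1470.1 CPM in Vec and between 1651 and 2479.7 CPM in Vec+BBR. In shRNA livers it was at 1117, 1412, 1509.7, 1279 and 1478 CPM, and in shRNA+BBR livers at 1187, 2126, 2431, 1793 and 1670.2 CPM. In the latter pair 4 of 5 BBR livers lay above all vehicle livers. The change was 0.44 ± 0.15 and just missed the threshold in edgeR (adjusted p = 0.0556), while DESeq2 gave 0.44 (adjusted p = 0.0313) and limma on the deposited FPKM 0.87 (adjusted p = 0.021). The FPKM of Apob rests on lengths that ran from 3176 to 6708 bases between libraries. In 22 of 28 alternative settings Apob was not called in this comparison. The change with BBR on the Vec background was 0.20 ± 0.15, and that with knockdown -0.36 ± 0.15 (edgeR, adjusted p = 0.414 and 0.123).

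Mttp (ENSMUSG00000028158, minus strand, chr3:138089854-138144968) was between 257 and 352 CPM in Vec, 288 and 348 in Vec+BBR, 287 and 368 in shRNA, and 253 and 355 in shRNA+BBR. The 4 means lay between 306 and 328 CPM. None of the 4 comparisons of groups passed the test in edgeR, their estimates lay between -0.04 and 0.10, and their 95% intervals between -0.25 and 0.32. The 2 BBR effects on Mttp differed by -0.10, with a 95% interval from -0.41 to 0.21.

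The libraries also differed within groups, and the genes that followed each called gene most closely were sought among all genes tested, over the deviations of the 20 libraries from their group means. Pltp was followed by Ifi27l2b (Pearson's r = 0.96), Entpd2 (0.94) and Cidec (0.93), the last a lipid droplet protein. With the deviation of Vec replicate 3 dropped these were 0.92, 0.93 and 0.87. The other Vec deviations were still taken from the mean of all 5 Vec libraries, so that these values are not free of that library. Apoa4 was followed by Plau, Rab1b and Fabp5 (0.86 each), Apoa5 by Mvb12a (0.83), Cebpd (0.81) and Dus1l (0.81), and Apoe by Mlycd (0.90), Polr2l (0.88) and Phb2 (0.87). Lipc was followed by Scnn1a (0.89), Mettl7a1 (0.88) and Cyp3a25 (0.87), and Lcat by Agt (0.93), Ahcy (0.91) and Sirt3 (0.91). These are the highest of 12342 values for each gene, they share library depth and scaling, and they are given as a description.

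Of 63 other genes of lipoprotein metabolism, 62 were tested. With BBR on the Vec background 4 of them rose and 13 fell, against 7.58% and 7.88% of all genes, and on the shRNA background 3 rose and 6 fell, against 8.37% and 7.28%. Knockdown raised 1 and lowered 10 with vehicle, against 5.28% and 7.91% of all genes, and between shRNA+BBR and Vec+BBR 1 was higher and 4 were lower, against 3.31% and 4.82%. For the difference of the BBR effect 0 were called in edgeR, against 0.0729% of all genes in each direction, 10 were higher and 1 lower at an unadjusted p under 0.05, and DESeq2 called 3, Angptl4, Apon and Lmf1. Among 10 other apolipoproteins, 5 fell with BBR on the Vec background, namely Apoc4, Apof, Apoh, Apon and Clu, where 7.88% of all genes fell. On the shRNA background none of these 5 was called, and of the 10, 1 rose (Apoa2) and 1 fell (Apom), with a median of 0.03. For BBR on the Vec background with libraries scaled by total counts, 2 of these 10 fell and, of the 62, 9 rose and 5 fell. Among all genes 1831 then rose and 459 fell, against 936 and 972 with TMM factors, so that the turn was not particular to lipoprotein genes.

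Among the secretion genes, Sort1, a sorting receptor that binds apolipoprotein B, went from 4.53 ± 0.813 CPM in Vec to 8.41 ± 3.12 in Vec+BBR (0.89 ± 0.19, edgeR, adjusted p = 0.00342). Tm6sf2, which takes part in the lipidation of very-low-density lipoprotein, went from 45.0 ± 8.09 to 28.2 ± 3.49 CPM (-0.68 ± 0.12, adjusted p = 0.000951). Both differences were opposite between shRNA+BBR and Vec+BBR, with Sort1 at -0.84 ± 0.19 (adjusted p = 0.00941) and Tm6sf2 at 0.57 ± 0.12 (adjusted p = 0.00549), and these comparisons share the Vec+BBR livers. On the shRNA background BBR gave 0.53 ± 0.19 for Sort1 (adjusted p = 0.0675) and -0.19 ± 0.12 for Tm6sf2 (adjusted p = 0.26). The 2 BBR effects differed by -0.36 ± 0.27 for Sort1 and 0.49 ± 0.16 for Tm6sf2, and neither difference was called (adjusted p = 0.471 and 0.14). Sar1a, a GTPase of the vesicles that leave the endoplasmic reticulum, rose with BBR on the Vec background (0.27 ± 0.07, adjusted p = 0.0107) and was lower in shRNA+BBR against Vec+BBR (-0.23 ± 0.07, adjusted p = 0.0432). Its BBR effect on the shRNA background was 0.09 ± 0.07 (adjusted p = 0.38), and the 2 effects differed by -0.18 ± 0.10 (adjusted p = 0.308). Lpcat3, which shapes the phospholipids of the particle surface, fell with knockdown from 163 ± 24.8 CPM in Vec to 84.0 ± 10.9 in shRNA (-0.95 ± 0.12, adjusted p = 3.65e-05), and by -0.48 ± 0.12 under BBR (adjusted p = 0.0181), and it rose with BBR on the shRNA background (0.41 ± 0.12, adjusted p = 0.0294). Each of these tests was made by edgeR.

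Among enzymes and their inhibitors, Pla2g7, a phospholipase carried on lipoproteins and made by macrophages, rose with BBR on both backgrounds (1.11 ± 0.24 and 0.84 ± 0.24, edgeR, adjusted p = 0.00357 and 0.0234). Lpl, the lipoprotein lipase, rose on the Vec background (0.79 ± 0.25, adjusted p = 0.0359) from a level of 5.46 ± 1.51 CPM, with 0.64 ± 0.24 on the shRNA background (adjusted p = 0.0754). Pon1, an esterase of high-density lipoprotein, fell on the Vec background (-0.63 ± 0.15, adjusted p = 0.00665), with -0.24 ± 0.15 on the shRNA background (adjusted p = 0.265). Angptl4, an inhibitor of lipoprotein lipase, fell with knockdown (-0.53 ± 0.10, adjusted p = 0.001) and with BBR on the Vec background (-0.30 ± 0.10, adjusted p = 0.0423).

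Among receptors, BBR on the shRNA background lowered Lrp1, a remnant receptor (-0.74 ± 0.18, edgeR, adjusted p = 0.013), and the value on the Vec background was -0.46 ± 0.18 (adjusted p = 0.0871). Scarb1, the receptor of high-density lipoprotein, fell with BBR on both backgrounds, by -0.69 ± 0.15 with shRNA (adjusted p = 0.00702) and -0.56 ± 0.15 with Vec (adjusted p = 0.0136). Apom, carried by high-density lipoprotein, fell on the shRNA background (-1.16 ± 0.24, adjusted p = 0.00602), with -0.68 ± 0.24 on the Vec background (adjusted p = 0.0558). Apoa2, an apolipoprotein of high-density lipoprotein, fell with knockdown (-0.55 ± 0.17, adjusted p = 0.0354) and rose with BBR on the shRNA background (0.50 ± 0.17, adjusted p = 0.0497). The clock repressor Nr1d1 was lower with knockdown under vehicle (-1.07 ± 0.31, adjusted p = 0.0254) and under BBR (-1.67 ± 0.31, adjusted p = 0.00322).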

How the data were processed

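RNA from liver was enriched for polyadenylated transcripts, and libraries made with the NEBNext Ultra kit were sequenced on an Illumina NovaSeq. The authors deposited expected counts per gene without normalization. The deposited FPKM values were scaled by the authors for transcript length and library size. The submitters' processing notes name the build mm10. The aligner and the counting program are not given in the sources used here. Groups and replicate numbers were taken from the labels, which do not state that each library is a separate mouse, and if they are not, p-values measure technical spread.

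Expected counts were rounded and filtered by filterByExpr (minimum count 10, minimum total 15). Groups were compared by the quasi-likelihood test of edgeR 4.0.16 in R 4.3.3 with TMM factors (0.873 to 1.14), 1 mean per group and Benjamini-Hochberg adjustment over 12342 genes. DESeq2 1.42.0 and limma 3.58.1 (on log2 of FPKM plus a pseudocount of 1) served as alternatives. The script was tested on simulated data. Positions are from GENCODE M21 (GRCm38) and promoter windows from RefSeq (GRCm38.p6). No pairing of mice by replicate number was assumed. Same-numbered libraries correlated over 0.1 in 1, 0, 0 and 3 of 5 numbers for BBR with Vec, knockdown with vehicle, knockdown with BBR and BBR with shRNA. The 10 genes, the lists and the named-gene rule were chosen with earlier results of these data known. By that rule all 10 genes are named, and of the other lipoprotein genes up to 5 per comparison, those called with the largest absolute change, of which 1 is not reported here. Marker genes and genes counted beside them were named after their values were seen. A count of 3 corresponds to 0.12 to 0.172 CPM, and depth covers counting error only.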

Additional observations from a re-analysis of the deposited data

Results flagged for a closer look

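2 of 40 sets of 5 values (10 genes in 4 groups) held a library far from the other 4 by Dixon's criterion. In independent sets chance would give as many at 1 in 20, but these sets share the same 20 libraries, so that the number cannot be judged against chance. Apoa4 in Vec replicate 3 was at 3749 CPM, and the next highest Vec library was at 1164 CPM. Lipc in shRNA+BBR replicate 3 was at 92.1 CPM, and the next lowest library of that group was at 114 CPM. Without that library, Lipc still fell with BBR on the shRNA background in edgeR, as it did in all 28 alternative settings.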

How the results depend on the processing

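Of 1380 values of the 10 genes over all alternatives, 1291 kept their direction and their side of the threshold, or were not called in either fit, 72 lost the call and 17 gained it, and none that was called turned its direction. The calls of Pltp and Lipc with BBR held in all 28 alternatives on both backgrounds. Scaling by total counts moved the median of all genes by 0.13 in Vec+BBR against Vec and by -0.15 for the difference of the BBR effect, with 1831 genes higher and 459 lower in the former, against 936 and 972 with TMM, and 1098 and 559 against 652 and 976 in shRNA against Vec. For the difference it gave 8 and 22, against 9 and 9. Genes called, of the 10: without the low-count filter 2 in Vec+BBR against Vec, for 4. In shRNA against Vec 1 in place of 3 when only these groups were fitted, with the replicate block, or with total counts. DESeq2 gave 5 in place of 3 in shRNA+BBR against shRNA. All genes called: 1178 in place of 1908 in Vec+BBR against Vec when only these groups were fitted, and for the difference, in place of 18, 330 by DESeq2, 30 by total counts and 28 by limma on FPKM. Other lipoprotein genes called: 10 in place of 17 in Vec+BBR against Vec when only these groups were fitted, 8 in place of 5 by DESeq2 in shRNA+BBR against Vec+BBR, 5 in place of 9 without the filter in shRNA+BBR against shRNA, and 3 in place of 0 by DESeq2 for the difference. A replicate block on only the groups compared, chosen after seeing the data like the limma fit, gave 808, 841 and 381 genes for BBR with Vec, knockdown with vehicle and knockdown with BBR, in place of 1908, 1628 and 1004. For BBR with shRNA it gave more, 2367 in place of 1932. Of the 10, it gave 0 in shRNA against Vec and 5 in shRNA+BBR against shRNA. It gave 6, 6, 3 and 15 other lipoprotein genes in the 4 comparisons. Apoe then lost its call in shRNA against Vec (adjusted p = 0.0698). The replicate numbers are shared labels only. Leaving out 1 library gave 1237 to 2395, 1015 to 2284, 538 to 1217, 661 to 2527 and 5 to 122 genes in the 5 comparisons, in the order BBR with Vec, knockdown with vehicle, knockdown with BBR, BBR with shRNA and the difference. It gave 2 to 5, 1 to 3, 0 to 1, 2 to 4 and 0 to 0 of the 10 genes, and 10 to 19, 6 to 17, 3 to 8, 3 to 12 and 0 to 0 other lipoprotein genes. The lowest counts of all genes came without Vec replicate 2 in the first, shRNA replicate 4 in the second, shRNA+BBR replicate 2 in the third, shRNA+BBR replicate 3 in the fourth and Vec+BBR replicate 4 in the fifth. The cause of these shifts was not tested. Depth was not limiting for the 10 genes, all of which were far above 3 counts in every library.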
